A study of Mus musculus with 18 samples.

Results

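The genes described here encode the hypoxia-inducible factors (HIF) and the aryl hydrocarbon receptor (AHR), the partner that both need, and the enzymes that set the amount of HIF protein. They are Epas1, Hif1a, Arnt, Ahr, Vhl, Egln1, Egln2 and Egln3, taken by gene name from a table of 12547 genes, and all 8 were present. They were chosen by name with values of these libraries already known, above all the log2 values of Epas1 in KO and WT cells. Epas1 and its comparison with Hif1a are therefore given as a description, and the other 7 genes were tested within a fit to all genes.

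The 18 RNA-seq libraries came from mouse T helper cells that had been taken as naive CD4 T cells, stimulated by anti-CD3/CD28 beads, and cultured toward Th1 in the presence of IL2, IL12 and anti-IL4. Th1 cells are marked by interferon gamma production. Id3-deficient (KO) and wild-type (WT) cultures contributed 3 libraries each to sets that the labels number 3, 5 and 6. As far as it is described, the culture was the same for all 6 groups, and in what the sets differed is not stated. Neither the meaning of a set number, nor the strain, age or number of mice, nor the way Id3 was deleted is given in the labels, so p-values measure only the spread between these libraries. The contrast names of the authors' deposited table attach the number 24 to set 3 and 96 to sets 5 and 6, with no unit.

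HIF-1 and HIF-2 are pairs of an alpha subunit, encoded by Hif1a or Epas1, with the protein of Arnt. When oxygen is present, the prolyl hydroxylases of the Egln genes mark the alpha subunits and the ubiquitin ligase containing VHL sends them for degradation, so that HIF is set largely at the protein level, which RNA-seq does not measure. In T cells, activation also raises HIF-1, which drives genes of glucose uptake and glycolysis, and AHR, a receptor for small molecules from the diet and the environment that also pairs with ARNT, is known for its part in Th17 and regulatory cells.

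The deposited values were log2 values whose total depth per library cannot be recovered. Id3, which encodes an inhibitor of E protein transcription factors, lay between 1.0 and 5.63 in the 9 KO libraries and between 8.85 and 10.08 in the 9 WT libraries. The CD4 T cell markers Cd4 and Cd3e lay between 11.52 and 14.10 in all libraries, and 3 further genes of that list of 9 were not analysed here. The summed log2 level of the 6 measured markers did not overlap between the genotypes in any set. In set 3 it was lower in KO cells, at 14.82 to 14.95, against 15.17 to 15.22 in WT cells. It was higher in KO cells of set 5 (16.19 to 16.28, WT 15.76 to 15.86) and set 6 (16.37 to 16.43, WT 15.89 to 16.08). A typical gene (the median of all 12547) differed between KO and WT cells by -0.07 in set 3, by 0.39 in set 5 and by 0.42 in set 6. A second value with each library's median subtracted (median-centred) is given below where it changes a call, since on the deposited scale a typical gene was higher in KO cells of sets 5 and 6.

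Epas1 (ENSMUSG00000024140.11), which encodes the alpha subunit of HIF-2 and is best known from endothelial and oxygen-sensing cells, differed most between the genotypes among the 8 genes. In KO cells its log2 value was 8.72, 6.27 and 7.70 in the libraries of set 3, 11.83, 11.29 and 11.71 in set 5, and 11.81, 11.56 and 12.08 in set 6. In WT cells it was 4.31, 5.81 and 4.50 in set 3, 5.71, 5.63 and 5.80 in set 5, and 5.48, 5.62 and 5.27 in set 6. Every KO library lay above every WT library of its set, most narrowly in set 3, where KO replicate 2 at 6.27 came next to WT replicate 2 at 5.81. The difference of KO from WT was 2.69 (SE 0.45) in set 3, 5.89 (SE 0.45) in set 5 and 6.36 (SE 0.45) in set 6 on the log2 scale, or 6.46-fold, 59.4-fold and 82.0-fold. With median-centred values it was 2.72, 5.50 and 5.95. These values chose the gene and are given with no test.

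Hif1a (ENSMUSG00000021109.14), which encodes the alpha subunit of HIF-1, had high values in every library. In KO cells its log2 value was 14.54, 14.10 and 14.92 in set 3, 15.65, 15.46 and 15.85 in set 5, and 15.59, 15.41 and 15.70 in set 6. In WT cells it was 13.90, 14.17 and 14.54 in set 3, 14.00, 14.09 and 14.19 in set 5, and 13.97, 14.20 and 14.27 in set 6. The genotypes overlapped in set 3 and were apart in sets 5 and 6, where the WT libraries stayed within the range of set 3.

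**Figure D1:**
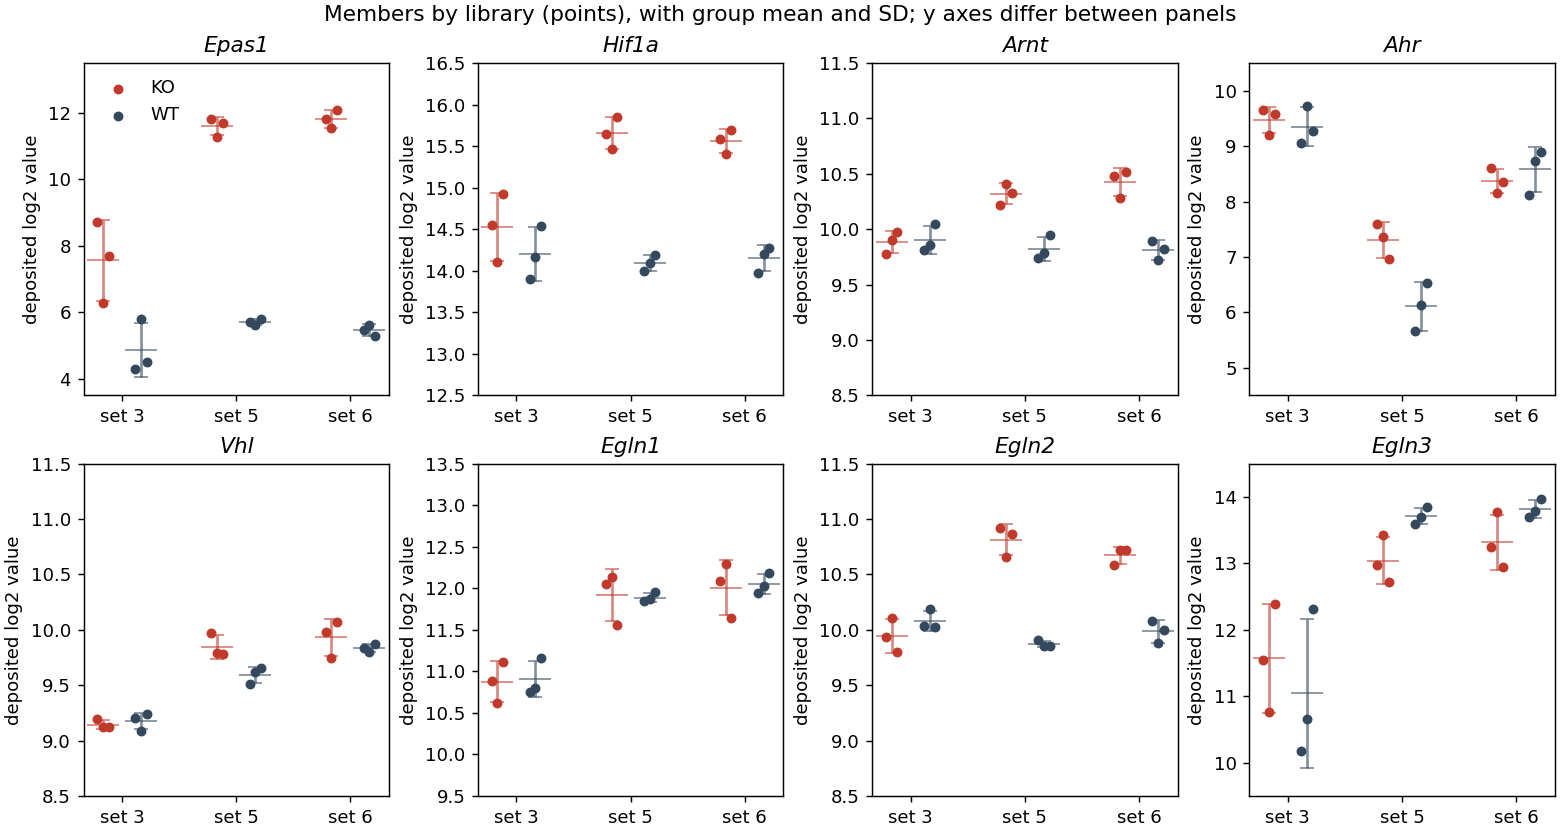
The deposited log2 value of each of the 8 genes in each library (points; KO red and on the left, WT dark blue and on the right), with the group mean and SD (lines, n = 3), by set on the x axis. Epas1 lay between 11.29 and 12.08 in KO cells of sets 5 and 6 and between 5.27 and 5.80 in WT cells of those sets; the y axes differ between panels.

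Within a library the gap between the 2 alpha subunits narrowed in KO cells. The log2 value of Epas1 minus that of Hif1a was -6.96 ± 1.03 in KO and -9.33 ± 0.87 in WT cells of set 3, -4.05 ± 0.20 in KO and -8.38 ± 0.09 in WT cells of set 5, and -3.75 ± 0.12 in KO and -8.69 ± 0.27 in WT cells of set 6 (SD, n = 3 each). The change of this gap in KO cells was thus 2.37 (SE 0.78) in set 3, 4.34 (SE 0.12) in set 5 and 4.94 (SE 0.17) in set 6, the last 2 being 20.2-fold and 30.7-fold on the linear scale. These SEs come from the libraries of each set alone. The SEs of Epas1 above come from the fit to all libraries, so the 2 kinds cannot be compared. The gap does not depend on how libraries are scaled by a constant, and it is a description with no test.

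**Figure D2:**
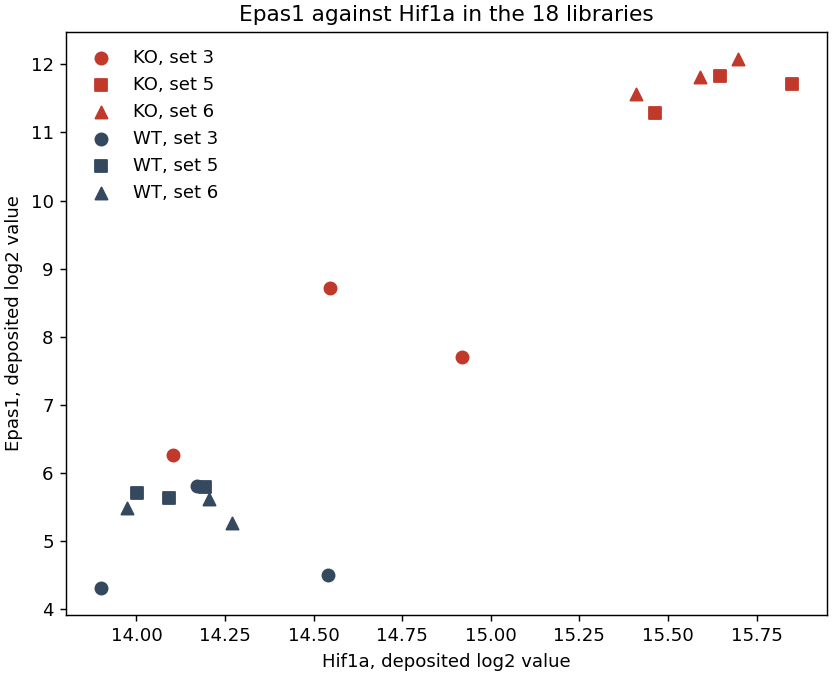
Epas1 (y axis) against Hif1a (x axis), both as deposited log2 values, with 1 point for each of the 18 libraries (KO red, WT dark blue; circles set 3, squares set 5, triangles set 6). The 6 KO libraries of sets 5 and 6 stand at the upper right, at 11.29 to 12.08 for Epas1 and 15.41 to 15.85 for Hif1a, while the 9 WT libraries lie at 4.31 to 5.81 for Epas1.

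Markers of other cells were read beside Epas1, which endothelial cells express. Of 8 endothelial markers 4 were measured, and their summed log2 level was 9.56 to 9.98 in KO and 9.56 to 10.04 in WT cells of set 3, 11.14 to 11.54 in KO and 9.97 to 10.01 in WT cells of set 5, and 11.46 to 11.73 in KO and 10.02 to 10.33 in WT cells of set 6. In sets 5 and 6 most of that sum was Pecam1, which T cells also express and which was higher in KO cells of set 5 by 1.66 (SE 0.19, limma adjusted p = 1.8e-06). In set 3 Egfl7 stood beside Pecam1, at means of 8.76 and 8.73 in KO cells and 8.39 and 8.97 in WT cells. Egfl7 averaged 7.12 in KO and 7.92 in WT cells of set 5, and 7.73 in KO and 7.57 in WT cells of set 6. Kdr and Vwf, which define endothelium, were low in all libraries, between 1.17 and 4.51, and Kdr averaged 2.36 in KO and 3.55 in WT cells of set 5. Of 6 macrophage markers 4 were measured, with sums of 7.14 to 7.63 in KO and 6.21 to 6.75 in WT cells of set 3, 9.35 to 9.82 in KO and 7.24 to 7.65 in WT cells of set 5, and 10.28 to 10.50 in KO and 8.43 to 9.35 in WT cells of set 6. Cd68 led these sums. Adgre1, which encodes a macrophage surface antigen, also had higher values in KO libraries of the later sets. They were 2.79 to 5.31 in KO and 1.37 to 2.11 in WT cells of set 5, and 5.76 to 7.48 in KO and 1.03 to 3.12 in WT cells of set 6. Lyz2 stood at 1.0 to 2.05 in both sets. Itgam went the other way, averaging 2.67 in KO and 3.15 in WT cells of set 5, and 1.74 in KO and 2.57 in WT cells of set 6. Of 7 mast cell and basophil markers 6 were measured, and their sum was 9.24 to 9.59 in KO and 5.80 to 6.78 in WT cells of set 3. In set 3, 5 of the 6 were called higher in KO cells, against 6.92% of all genes. The means there in KO and WT cells were 6.92 and 1.32 for Tpsb2, 7.20 and 1.81 for Cma1, and 6.93 and 2.65 for Mcpt8. They were 6.21 and 1.91 for Cpa3, 5.51 and 2.16 for Fcer1a, and 6.98 and 5.70 for Kit. The sum in set 5 was 4.96 to 6.72 in KO and 7.56 to 8.01 in WT cells, and in set 6 it was 5.94 to 6.58 in KO and 7.56 to 7.73 in WT cells. The lower sum in KO cells of set 5 went with Kit (on average 5.32 in KO cells, against 7.71 in WT cells), which mast cells share with other cells, whereas Cpa3, a mast cell protease, averaged 4.08 in KO and 3.07 in WT cells there and Tpsb2 and Fcer1a stood at 1.0 to 1.10 in both genotypes.

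The summed markers of B cells, and those of gamma delta T and NKT cells, stood higher in KO than in WT libraries without overlap in all 3 sets. The sum of the 4 B cell markers was 7.55 to 10.43 in KO and 5.67 to 6.96 in WT cells of set 3, 6.70 to 6.99 in KO and 5.35 to 5.67 in WT cells of set 5, and 6.26 to 7.08 in KO and 4.38 to 5.79 in WT cells of set 6. Of 4 gamma delta T and NKT markers Klrb1c and Zbtb16 were measured, and their sum was 7.54 to 8.40 in KO and 5.73 to 5.99 in WT cells of set 3, 4.50 to 5.89 in KO and 2.34 to 3.14 in WT cells of set 5, and 6.17 to 6.59 in KO and 3.07 to 4.46 in WT cells of set 6. Of 4 dendritic cell markers 2 were measured. Their sum was 6.27 to 6.95 in KO and 4.73 to 5.75 in WT cells of set 3, and the genotypes overlapped in sets 5 and 6. The sum of the 2 CD8 T cell markers was 8.62 to 9.05 in KO and 7.78 to 8.58 in WT cells of set 5, and the genotypes overlapped in sets 3 and 6. That of the 4 Th1 markers was 14.94 to 15.72 in KO and 14.11 to 14.33 in WT cells of set 3. In set 5 it was 14.76 to 15.71 and 14.20 to 14.28, and the genotypes overlapped in set 6. In set 3 Ifng (15.11 in KO, 13.75 in WT cells) and Cxcr3 (9.30, 7.92) averaged higher in KO cells. Tbx21 (10.71, 11.14) and Il12rb2 (10.74, 11.46) averaged lower. The part of any of these cells in the values of Epas1 and Hif1a was not tested, and in bulk libraries fewer cells of a type and less RNA per cell cannot be told apart.

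Levels of different genes were compared per kilobase of the longest protein-coding transcript (GENCODE M21), which assumes that the deposited values scale with transcript length, as the sources do not state. On this scale Hif1a had the highest mean level of the 8 genes in KO cells of all 3 sets and in WT cells of set 3, and Egln3 had the highest in WT cells of sets 5 and 6. Epas1 ranked last in KO cells of set 3 and in WT cells of all sets, and 5 of 8 in KO cells of sets 5 and 6. In set 5 the log2 level per kilobase was 9.14 for Epas1 and 13.41 for Hif1a in KO cells, and 3.25 for Epas1 and 11.86 for Hif1a in WT cells. Neighbours in the order often lay within their spread: in KO cells of set 5, Arnt stood at 8.21 and Vhl at 8.36, with SDs of 0.09 and 0.11.

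Setting KO against WT cells, 1 set at a time, asks which of these transcripts differ where Id3 is missing. In set 3 none of the 7 tested genes passed, against 11.4% of all genes (limma, Benjamini-Hochberg adjusted p under 0.05, here and in what follows; 0 of the 7 also at an unadjusted p under 0.05). In set 5 Hif1a, Arnt, Ahr, Vhl and Egln2 were higher in KO cells and none of the 7 was lower, against 50.1% of all genes called higher and 8.08% called lower. In set 6 Hif1a, Arnt and Egln2 were higher and none was lower, against 53.9% of all genes higher and 4.59% lower. With median-centred values, Hif1a, Ahr and Egln2 were higher in set 5, against 24.9% of all genes higher and 24.7% lower. In set 6 on that scale Hif1a and Egln2 were higher, against 18.8%, and Vhl and Egln1 were lower, against 18.5%. The share of the 7 genes called higher was thus close to that of all genes on the deposited scale, and nothing particular to the group is read from it.

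Hif1a rose in KO cells of set 5 by 1.56 on the log2 scale (SE 0.18, limma adjusted p = 1.9e-06), or 2.94-fold, and in set 6 by 1.42 (SE 0.18, adjusted p = 6.24e-06), or 2.67-fold. Both calls remained with median-centred values, at 1.17 (adjusted p = 6.66e-05) in set 5 and 1.004 (adjusted p = 0.000447) in set 6. In set 3 the difference was 0.32 (SE 0.18, adjusted p = 0.261), which passed only without KO replicate 2, at 0.53 (adjusted p = 0.0425). KO replicate 2 was also the lowest KO library of set 3 for Epas1 and Egln3.

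Arnt (ENSMUSG00000015522.19) encodes the partner that HIF alpha subunits and AHR have in common. Its log2 values in KO cells were 9.78, 9.90 and 9.98 in set 3, 10.22, 10.41 and 10.33 in set 5, and 10.48, 10.28 and 10.52 in set 6. In WT cells they were 9.81, 9.86 and 10.05 in set 3, 9.74, 9.79 and 9.95 in set 5, and 9.90, 9.72 and 9.82 in set 6. The genotypes lay apart in sets 5 and 6, by less than a doubling: the rise was 0.49 (SE 0.09, limma adjusted p = 0.000261) in set 5 and 0.61 (SE 0.09, adjusted p = 3.99e-05) in set 6. Relative to the median of all genes it was 0.11 (adjusted p = 0.368) and 0.20 (adjusted p = 0.104), so that the call on Arnt rested on the scale.

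Egln2 (ENSMUSG00000058709.12) encodes a prolyl hydroxylase (PHD1) that marks HIF alpha subunits. In KO cells its log2 values were 9.93, 10.11 and 9.80 in set 3, 10.92, 10.65 and 10.86 in set 5, and 10.58, 10.72 and 10.72 in set 6. In WT cells they were 10.03, 10.19 and 10.02 in set 3, 9.91, 9.85 and 9.85 in set 5, and 10.08, 9.88 and 10.00 in set 6. All KO libraries of sets 5 and 6 stood above all 9 WT libraries. The rise was 0.94 (SE 0.09, limma adjusted p = 3.95e-07) in set 5 and 0.69 (SE 0.09, adjusted p = 1.17e-05) in set 6, and it was called with median-centred values too, at 0.55 (adjusted p = 0.000146) and 0.27 (adjusted p = 0.0279).

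**Figure D3:**
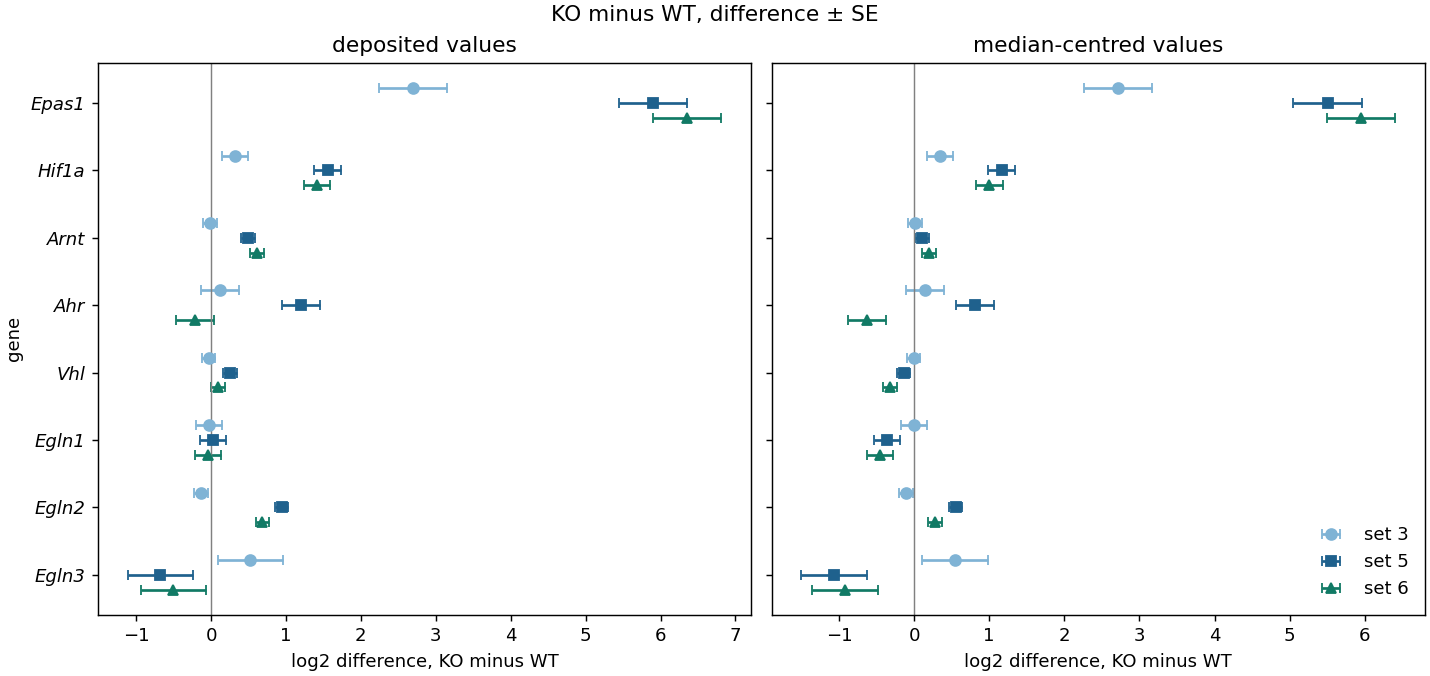
The log2 difference of KO from WT (points, with SE from the fit to all genes) for each of the 8 genes in sets 3, 5 and 6, with the deposited values on the left and the median-centred values on the right. Hif1a and Egln2 lie to the right of 0 in sets 5 and 6 in both panels, while Arnt moves close to 0 on the right; Epas1 is drawn as a description.

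The sequences at the starts of Hif1a, Arnt and Egln2 are shown because these 3 genes were higher in KO cells of both later sets on the deposited scale. They are RefSeq windows of GRCm38.p6, from upstream of the start to just after it, written along the gene's strand: chr12:73907617-73907916 (plus strand) for Hif1a, chr3:95434140-95434439 (plus strand) for Arnt and chr7:27166753-27167052 (minus strand) for Egln2, which has a second window that is not printed. Of the 8 genes, 6 had a window in the table; Epas1 and Ahr did not. Capitals mark ACGTG, the core of the element that HIF binds, and CAGCTG and CAGGTG, a pair of E boxes of the kind that E proteins bind, on either strand; where ACGTG lies on both strands of CACGTG it is counted as 1 place.
Hif1a: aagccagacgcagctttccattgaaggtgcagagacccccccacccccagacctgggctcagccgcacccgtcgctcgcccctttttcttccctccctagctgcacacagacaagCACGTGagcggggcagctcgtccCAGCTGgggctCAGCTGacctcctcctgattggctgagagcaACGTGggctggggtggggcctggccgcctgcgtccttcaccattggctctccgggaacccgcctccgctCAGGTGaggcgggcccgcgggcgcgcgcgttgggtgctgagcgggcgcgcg
Arnt: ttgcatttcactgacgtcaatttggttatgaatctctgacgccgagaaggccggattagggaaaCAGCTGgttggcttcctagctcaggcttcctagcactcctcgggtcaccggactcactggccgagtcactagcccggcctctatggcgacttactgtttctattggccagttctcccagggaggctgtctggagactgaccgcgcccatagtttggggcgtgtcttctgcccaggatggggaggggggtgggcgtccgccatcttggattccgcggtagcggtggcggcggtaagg
Egln2: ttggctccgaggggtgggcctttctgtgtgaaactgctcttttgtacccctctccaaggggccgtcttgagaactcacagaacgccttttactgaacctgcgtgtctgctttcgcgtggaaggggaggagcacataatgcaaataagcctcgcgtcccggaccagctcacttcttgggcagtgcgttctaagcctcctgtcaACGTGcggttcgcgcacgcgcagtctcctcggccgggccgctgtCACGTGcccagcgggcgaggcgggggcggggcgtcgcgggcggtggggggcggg
The Hif1a window holds 2 places of ACGTG, at bases 116 to 121 and 181 to 185, 2 of CAGCTG and 1 of CAGGTG. The Arnt window holds 1 CAGCTG and the printed Egln2 window 2 places of ACGTG, at bases 203 to 207 and 247 to 252. The second Egln2 window, not printed, holds 1 CAGGTG. Among the genes whose windows are not shown, Egln1 has 1 ACGTG and 1 CAGGTG, Egln3 has 1 ACGTG, and Vhl has none of these motifs. Of 32851 windows of this length in the table, 19.6% hold ACGTG, 16.3% CAGCTG and 20.2% CAGGTG, and a match of letters is not a measured binding site.

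Ahr (ENSMUSG00000019256.18), the receptor gene, had a course of its own. In KO cells its log2 values were 9.64, 9.20 and 9.58 in set 3, 7.60, 7.36 and 6.96 in set 5, and 8.60, 8.16 and 8.35 in set 6. In WT cells they were 9.05, 9.73 and 9.28 in set 3, 5.65, 6.14 and 6.52 in set 5, and 8.12, 8.73 and 8.89 in set 6. Both genotypes were lowest in set 5, where the KO libraries stood above the WT libraries, and the genotypes overlapped in sets 3 and 6. Ahr was higher in KO cells of set 5 by 1.204 (SE 0.25, limma adjusted p = 0.000668), or 2.30-fold, and by 0.82 with median-centred values (adjusted p = 0.0139). In set 6 the difference was -0.21 (SE 0.25, adjusted p = 0.491).

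Vhl (ENSMUSG00000033933.14), whose product recognises hydroxylated HIF alpha subunits, lay between 9.09 and 10.07 in all libraries. In KO cells its log2 values were 9.19, 9.12 and 9.12 in set 3, 9.97, 9.79 and 9.78 in set 5, and 9.98, 9.74 and 10.07 in set 6. In WT cells they were 9.20, 9.09 and 9.24 in set 3, 9.51, 9.62 and 9.65 in set 5, and 9.84, 9.80 and 9.87 in set 6. The KO libraries lay above the WT libraries in set 5 only, by 0.25 (SE 0.09, limma adjusted p = 0.0235). Its direction turned with the scale: relative to the median of all genes Vhl differed by -0.14 (adjusted p = 0.219) in set 5 and was called lower in set 6, at -0.32 (adjusted p = 0.0109), against 0.10 (adjusted p = 0.378) as deposited. The call in set 5 was lost without KO replicate 1 (adjusted p = 0.111) or WT replicate 1 (adjusted p = 0.0904).

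Egln1 (ENSMUSG00000031987.7) encodes PHD2, the main oxygen sensor of most cells, and it is itself a HIF target. Its group means in sets 3, 5 and 6 were 10.87 ± 0.25, 11.92 ± 0.31 and 12.01 ± 0.33 in KO cells, and 10.91 ± 0.22, 11.89 ± 0.05 and 12.05 ± 0.13 in WT cells (SD, n = 3 each). The genotypes overlapped in every set, and the differences on the deposited scale were -0.03, 0.03 and -0.04 (SE 0.17 each, limma adjusted p = 0.923, 0.906 and 0.849). With median-centred values the difference was -0.36 in set 5 (adjusted p = 0.0949) and -0.46 in set 6, where Egln1 was called lower by a narrow margin (adjusted p = 0.0489).

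Egln3 (ENSMUSG00000035105.6) encodes PHD3, the hydroxylase whose transcript is known for the strongest induction by HIF in many cell types. In KO cells its log2 values were 11.55, 10.76 and 12.39 in set 3, 12.97, 13.42 and 12.72 in set 5, and 13.24, 13.77 and 12.94 in set 6. In WT cells they were 10.18, 10.65 and 12.31 in set 3, 13.60, 13.70 and 13.85 in set 5, and 13.70, 13.79 and 13.96 in set 6. The libraries of set 3 were widely spread in both genotypes, every KO library lay below every WT library in set 5, and the genotypes overlapped in set 6. The differences did not pass the test, at -0.67 (SE 0.44, limma adjusted p = 0.197) in set 5 and -0.50 (SE 0.44, adjusted p = 0.338) in set 6. In set 5 the adjusted p was 0.00890 when only the KO and WT libraries of set 5 entered the fit, which leaves out the wide spread of set 3.

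The KO difference of set 5 was set against that of set 3 in the same fit. It was larger in set 5 for 4 of the 7 tested genes, against 43.2% of all genes higher and 6.82% lower. The difference between the effects was 1.24 (SE 0.25, limma adjusted p = 0.000713) for Hif1a, 0.51 (SE 0.13, adjusted p = 0.00419) for Arnt, 1.08 (SE 0.36, adjusted p = 0.0192) for Ahr and 1.08 (SE 0.13, adjusted p = 8.35e-06) for Egln2. With median-centred values Hif1a, at 0.82 (adjusted p = 0.0174), and Egln2, at 0.66 (adjusted p = 0.00115), still passed, against 18.7% of all genes higher, while Arnt (0.10, adjusted p = 0.595) and Ahr (0.67, adjusted p = 0.156) did not. For Egln3 the effects differed by -1.20 (SE 0.62, adjusted p = 0.117), and this passed without WT replicate 3 of set 3, at -1.83 (adjusted p = 0.00441), or without KO replicate 2 of set 3, at -1.60 (adjusted p = 0.0357).

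Between sets 6 and 3 the effect was larger in set 6 for 3 of the 7 genes, against 46.2% of all genes higher. It differed by 1.10 (SE 0.25, limma adjusted p = 0.00198) for Hif1a, 0.63 (SE 0.13, adjusted p = 0.000989) for Arnt and 0.82 (SE 0.13, adjusted p = 0.000107) for Egln2. With median-centred values only Egln2 passed, at 0.38 (adjusted p = 0.0425), against 12.7% of all genes higher. No gene of the table was called for a KO effect that differed between sets 6 and 5 with limma (0.0% of all genes; 1320 genes and 1 of the 7 at an unadjusted p under 0.05). Leaving out 1 library called 1 gene in each of 2 cases: Hbb-bt, a globin gene, without WT replicate 3 of set 5 (5.68, adjusted p = 0.0162) and Grp without KO replicate 2 of set 3 (4.96, adjusted p = 0.0252), both found after the values were seen. The member at an unadjusted p under 0.05 was Ahr, whose effect differed by -1.42 (SE 0.36, adjusted p = 0.290).

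Within a genotype, the comparison of set 5 with set 3 shows how the genes moved between these sets in each genotype. In KO cells all 7 tested genes changed, 6 higher and Ahr lower, against 49.8% of all genes higher and 23.4% lower. In WT cells 4 changed, with Vhl, Egln1 and Egln3 higher and Ahr lower, against 29.3% of all genes higher and 38.3% lower. Ahr was lower in set 5 by -2.17 in KO cells (SE 0.25, limma adjusted p = 9.07e-07) and by -3.25 in WT cells (SE 0.25, adjusted p = 1.37e-08). Egln3 was higher in set 5 by 1.47 in KO cells (SE 0.44, adjusted p = 0.00628) and by 2.67 in WT cells (SE 0.44, adjusted p = 4.87e-05), and Egln1 by 1.04 in KO cells (SE 0.17, adjusted p = 4.43e-05) and 0.98 in WT cells (SE 0.17, adjusted p = 0.000101). Hif1a was higher in set 5 by 1.13 in KO cells (SE 0.18, adjusted p = 2.53e-05), while in WT cells it differed by -0.11 (SE 0.18, adjusted p = 0.609). Epas1 was 4.04 (SE 0.45) higher in set 5 in KO cells and 0.84 (SE 0.45) higher in WT cells, where the libraries of the sets overlapped. With median-centred values the call on Arnt in KO cells was lost, at 0.05 (adjusted p = 0.633), which left 6 of the 7 called in KO cells, against 71.3% of all genes, and 4 in WT cells, against 67.3%.

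**Figure D4:**
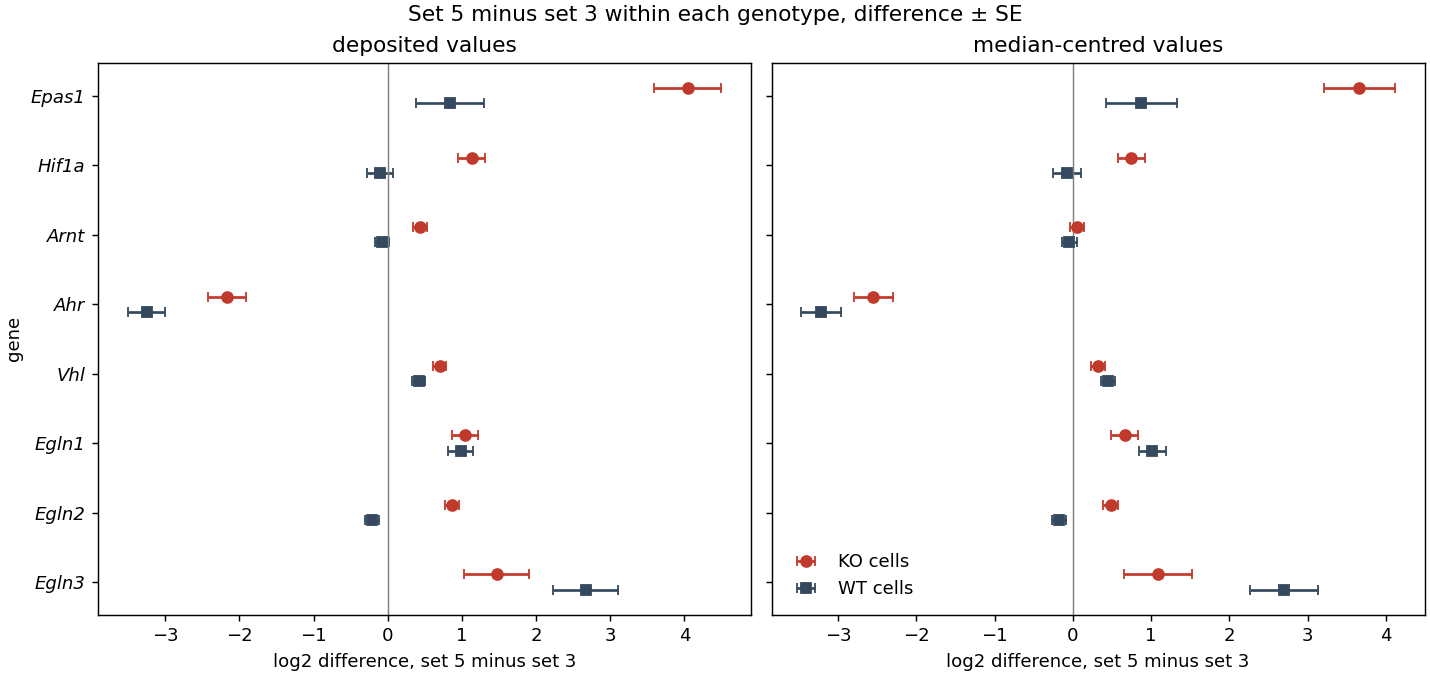
The log2 difference of set 5 from set 3 (points, with SE) for each of the 8 genes in KO cells (red circles) and WT cells (dark blue squares), with deposited values on the left and median-centred values on the right. Ahr lies far to the left of 0 and Egln3 and Egln1 to the right in both genotypes, while Hif1a and Egln2 lie to the right in KO cells only.

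Set 6 differed from set 5 among the 7 tested genes only in Ahr, in both genotypes. Ahr was higher in set 6 by 1.06 in KO cells (SE 0.25, limma adjusted p = 0.0150), against 9.93% of all genes called higher, and by 2.48 in WT cells (SE 0.25, adjusted p = 0.000162), against 3.01% of all genes called higher. With median-centred values these shares were 3.87% in KO and 1.49% in WT cells, and Ahr was called in both. Leaving out 1 library changed the number of all genes called to between 589 and 1647 in KO cells, against 1501 with all libraries, and to between 113 and 385 in WT cells, against 423. The call in KO cells was lost without KO replicate 3 of set 5 (adjusted p = 0.0768) or KO replicate 1 of set 6 (adjusted p = 0.0664). In the authors' deposited table the adjusted p of Ahr was 0.157 for KO and 0.000337 for WT cells. For KO against WT the authors' deposited table had adjusted p under 0.05 for Hif1a, Arnt, Ahr and Egln2 in set 5 and for Hif1a, Arnt and Egln2 in set 6, while Vhl stood at 0.762 in set 5. The authors' test score was 0.0 for small differences, such as that of Vhl in set 5, so their test was not the one used here. With the limma test against a minimum fold of 1.2, the adjusted p was 0.161 for Ahr in KO cells of set 6 against set 5. It was 0.762 for Vhl in set 5, KO against WT.

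Genes that HIF is known to induce were followed as lists, each described by its counts. Of all genes, 50.1% were higher and 8.08% lower in KO cells of set 5, and 53.9% higher and 4.59% lower in set 6, or 24.9% and 24.7% in set 5 and 18.8% and 18.5% in set 6 with median-centred values. These shares are the ones to read the counts of every list against. Of 19 genes of glucose uptake and glycolysis, all measured, none was called in set 3, and none was higher in KO cells of set 5 or 6. Several of the 19 varied widely between libraries of a genotype in set 3, so the lack of calls there does not show equal levels. In set 5, 3 were lower: Slc2a3, a glucose transporter, by -1.02 (SE 0.25, limma adjusted p = 0.00251), Pgam1, a glycolytic mutase, by -0.55 (SE 0.15, adjusted p = 0.00515), and Ldha, which makes lactate, by -0.44 (SE 0.15, adjusted p = 0.0168). In set 6, Slc2a3 and Pgam1 were lower. The median difference of the list was 0.11 in set 3, -0.20 in set 5 and -0.04 in set 6, against -0.07, 0.39 and 0.42 over all genes. With median-centred values 11 of the 19 were lower in set 5 and 7 in set 6. Without KO replicate 3 of set 6 no gene of this list was called on the deposited scale, and without WT replicate 1 or 3 of set 6 only 1 was.

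Of 28 HIF targets with other roles, 27 were measured. In set 3, 3 were higher in KO cells, against 6.92% of all genes, namely Stc2, which encodes a secreted glycoprotein, by 3.72 (SE 0.49, limma adjusted p = 0.000197), Adm, which encodes the peptide adrenomedullin, by 2.37 (SE 0.43, adjusted p = 0.00231), and Bhlhe40, a transcriptional repressor active in T helper cells, by 0.57 (SE 0.14, adjusted p = 0.0172). The count in set 3 was 6 without KO replicate 2 and 1 with only the compared groups in the fit, and Adm stood close to the lowest values of a library in WT cells, at 1.74 on average. In set 5, 3 were higher and 12 lower, and in set 6, 5 were higher and 5 lower. With median-centred values 3 were higher and 17 lower in set 5, and 3 higher and 16 lower in set 6. The count in set 6 was 4 higher and 2 lower without WT replicate 3.

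The 3 higher genes of this list in set 5 also had the smallest adjusted p among the 5 higher ones in set 6. Bhlhe41, a repressor related to Bhlhe40, had 6.17, 5.51 and 5.59 in KO cells and 1.86, 1.56 and 1.89 in WT cells of set 5, and the difference was 3.99 (SE 0.53, limma adjusted p = 8.22e-06), with WT libraries near the lowest value. Kdm3a, a histone demethylase, rose by 0.87 (SE 0.09, adjusted p = 1.14e-06), and Bhlhe40 by 0.86 (SE 0.14, adjusted p = 8.79e-05). Vegfa, which encodes the angiogenic growth factor, had 9.37, 9.84 and 9.43 in KO cells and 10.38, 10.22 and 10.46 in WT cells of set 5, a difference of -0.81 (SE 0.12, adjusted p = 3.23e-05). Plod2, a collagen lysyl hydroxylase, was lower by -1.50 (SE 0.33, adjusted p = 0.000996) and Car12, a carbonic anhydrase, by -1.33 (SE 0.26, adjusted p = 0.00035). In set 6 Vegfa was lower by -0.44 (SE 0.12, adjusted p = 0.00567), Plod2 by -1.23 (SE 0.33, adjusted p = 0.00443) and Ndrg1, a gene of the hypoxia response, by -1.35 (SE 0.45, adjusted p = 0.0171).

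**Figure D5:**
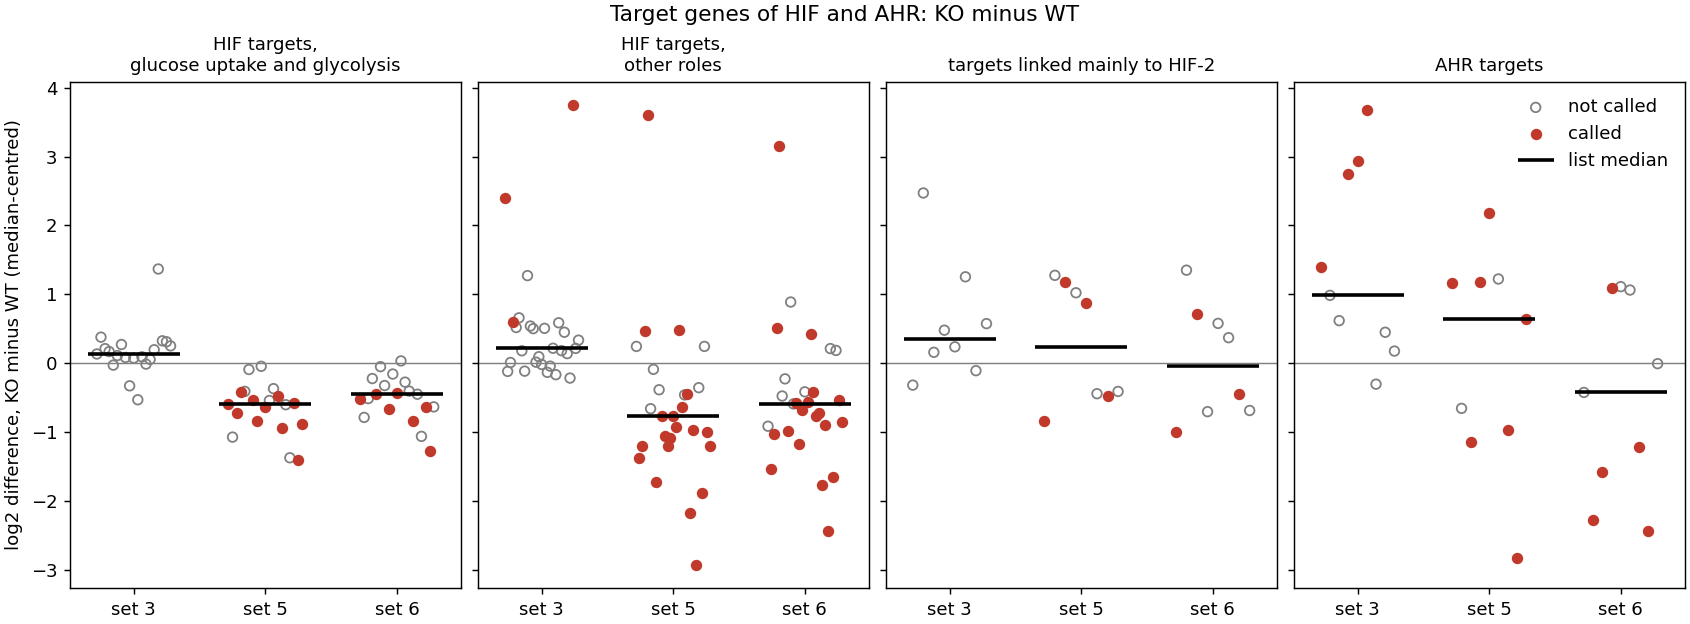
The median-centred log2 difference of KO from WT for each measured gene of 4 target lists (points; filled where the limma test called the gene) in sets 3, 5 and 6, with the median of each list as a bar. In set 5 the bars stand at -0.59 for glucose uptake and glycolysis and -0.77 for HIF targets with other roles, with Bhlhe41 far above the rest of its list.

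Of 14 genes linked to HIF-2 in other tissues, a link that several share with HIF-1, 8 were measured. None was called in set 3. In set 5, 3 were higher and 1 lower, and in set 6, 2 were higher and 1 lower. Cited2, which encodes a competitor of HIF for its coactivator, had 12.72, 12.48 and 12.58 in KO cells and 11.07, 11.10 and 10.90 in WT cells of set 5, a rise of 1.57 (SE 0.10, limma adjusted p = 9.62e-09), and in set 6 it rose by 1.13 (SE 0.10, adjusted p = 1.96e-07). Plin2, a coat protein of lipid droplets, rose by 1.26 (SE 0.25, adjusted p = 0.000395) in set 5. Angptl4, a lipase inhibitor, was lower by -0.45 (SE 0.18, adjusted p = 0.042) in set 5 and -0.59 (SE 0.18, adjusted p = 0.0112) in set 6. With median-centred values 2 were higher and 2 lower in set 5, and 1 higher and 2 lower in set 6, where Plin2 lost its call (adjusted p = 0.0786). The deposited count in set 5 was 2 without WT replicate 1 or 3.

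Of 13 AHR targets, 9 were measured. In set 3, 4 were higher in KO cells, against 6.92% of all genes, among them Entpd1, which encodes the ectonucleotidase CD39, by 2.72 (SE 0.25, limma adjusted p = 7.12e-06), Il10, the gene of an anti-inflammatory cytokine, by 2.91 (SE 0.47, adjusted p = 0.000896), and Ahrr, the AHR repressor, by 1.37 (SE 0.29, adjusted p = 0.00598). In set 5, 4 were higher and 2 lower, and in set 6, 3 were higher and 4 lower. With median-centred values 4 were higher and 3 lower in set 5, and 1 higher and 4 lower in set 6, where Il10 (adjusted p = 0.074) and Tiparp (adjusted p = 0.983) lost their calls. Tiparp, an AHR-induced ADP-ribosyltransferase, rose by 1.04 (SE 0.15, adjusted p = 2.11e-05) in set 5. Nqo1, a quinone reductase, had 7.94, 7.91 and 7.61 in KO cells and 10.34, 9.92 and 10.51 in WT cells of set 5 and was lower by -2.43 (SE 0.21, adjusted p = 1.08e-07), and in set 6 it was lower by -2.02 (SE 0.21, adjusted p = 8.83e-07). Nfe2l2, which encodes the activator of Nqo1 in the antioxidant response, was lower by -0.57 (SE 0.13, adjusted p = 0.00102) in set 5 and -0.81 (SE 0.13, adjusted p = 5.19e-05) in set 6. Cyp1a1, the classical AHR-induced oxygenase, was lower by -1.87 (SE 0.51, adjusted p = 0.00513) in set 6, where the difference in Ahr itself did not pass the test. With only the compared groups in the fit, 2 members were called in set 3.

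In set 5 against set 3, where 49.8% of all genes were higher and 23.4% lower in KO cells and 29.3% higher and 38.3% lower in WT cells, 10 genes of glucose uptake and glycolysis were higher and 3 lower in KO cells, with a list median of 0.57, and 14 were higher and 1 lower in WT cells, with a list median of 0.70. The share higher in KO cells was thus near that of all genes, and with median-centred values 8 of this list were higher and 5 lower in KO cells. Of the HIF targets with other roles, 17 were higher and 3 lower in KO cells and 19 higher and 2 lower in WT cells. The medians of that list were 1.41 in KO and 1.599 in WT cells, beside 0.38 in KO and -0.12 in WT cells over all genes. Stc2 was 2.61 (SE 0.49, limma adjusted p = 0.000163) higher in set 5 in KO cells and 5.70 (SE 0.49, adjusted p = 4.44e-08) higher in WT cells. Of the 9 measured AHR targets, 4 were higher and 1 lower in KO cells, with a list median of 0.90. In WT cells 7 of them were higher and 1 lower, with a list median of 2.005, although Ahr itself was lower in both genotypes.

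Of 18 partners and regulators, all measured, 1 was higher and 1 lower in KO cells of set 3, against 6.92% and 4.46% of all genes. Of the 18, 10 were higher and 1 lower in set 5, and 11 higher and 1 lower in set 6. The share of higher ones was close to that of all genes. With median-centred values 7 were higher and 7 lower in set 5, and 6 higher and 6 lower in set 6. Hif1an encodes FIH, the hydroxylase that keeps HIF alpha subunits from their coactivator. It had 9.99, 9.98 and 9.91 in KO cells and 8.83, 8.76 and 8.79 in WT cells of set 5, a rise of 1.17 (SE 0.09, limma adjusted p = 6.41e-08), and in set 6 it rose by 0.97 (SE 0.09, adjusted p = 4.95e-07). Siah1a, a ubiquitin ligase that in other cells acts on prolyl hydroxylases, was lower by -0.72 (SE 0.16, adjusted p = 0.00765) in set 3 and higher by 1.80 (SE 0.16, adjusted p = 1.49e-07) in set 5. Hsp90aa1, a chaperone that holds AHR and HIF-1 alpha, was lower by -0.44 (SE 0.08, adjusted p = 0.000223) in set 5 and -0.38 (SE 0.08, adjusted p = 0.000848) in set 6.

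The genes whose log2 values most resembled those of Epas1 over the 18 libraries were Cst7, a protease inhibitor of cytotoxic cells (Pearson r = 0.982), Pde4b, a cAMP phosphodiesterase (0.980), Rnf19b, a ubiquitin ligase (0.979), Ccno (0.972) and Cd82, a tetraspanin (0.971). For Hif1a they were Pde4b (0.977), Abtb2 (0.973), Auh (0.973), Gmip (0.972) and Fchsd2 (0.972). These coefficients describe the pattern only, since the libraries fall into 6 groups that share genotype and set.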

How the data were processed

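RNA-seq values of 18 libraries (6 groups of 3) were analysed. Salmon 1.9.0, edgeR, limma and the GRCm39 build are named in the submitters' processing notes, without their roles. The main table held log2 values as deposited by the authors, and the sources used here do not give their normalization. Within a group 97.0 to 98.4% of sorted values were identical, a sign of quantile-like scaling by group before deposit that narrows the spread and can make p-values smaller. The table gives no read counts, so depth is unknown. A second table deposited by the authors held contrasts with log2 fold changes, a test score (t) and p-values, per the file headers.

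Tests used limma 3.58.1 (R 4.3.3). All 6 groups entered 1 fit with an intensity-dependent prior variance and 12 residual degrees of freedom, and p-values were adjusted by Benjamini-Hochberg over 12547 genes, with calls at an adjusted p under 0.05. Differences of KO effects between sets came from the same model. The procedure was tested on simulated data with independent libraries. These had neither the within-group scaling nor any pairing of replicates, so the effect of either on p-values was not tested. Median centring subtracted each library's median, and summed marker levels are log2 of the summed linear values. Alternatives were median centring, quantile normalization, 1 added on the linear scale, a filter (log2 of 2 or more in at least 3 libraries, which left all 12547 genes), no trend, a minimum fold of 1.2, only the compared groups, the replicate number as a block, and leaving out each library.

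The genes and lists were chosen with earlier results of these data known. Named genes are the 8 members, Id3, up to 3 called genes per list and direction with the smallest adjusted p in each KO against WT comparison, and the 5 genes most correlated with Epas1 and with Hif1a; Stc2 between sets and the markers were named beside them.

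Replicate numbers were checked by correlating each library's deviations from its group mean. For KO and WT libraries of a set it was -0.08 to 0.18, and they were not treated as paired. The highest of these values, for replicate 3 of set 3, lay above the limit of 0.1 used here. With 3 libraries a group, an absence of pairing cannot be shown. For sets 5 and 6 the correlation was 0.22 to 0.34 in KO cells and 0.12 to 0.16 in WT cells, which counts as paired under a limit of 0.1. The block within each genotype was therefore added after seeing the values. In KO cells the correlation of set 3 was 0.03 to 0.15 with set 5 and 0.01 to 0.18 with set 6, partly above the limit. In WT cells it was 0.04 to 0.07 with either set. Since libraries of sets 5 and 6 may be paired, the same call in both sets is not counted as a repeat in independent libraries.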

Additional observations from a re-analysis of the deposited data

Results flagged for a closer look

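The KO difference was larger in set 5 than in set 3, by the interaction test of limma, for Hif1a (1.24, SE 0.25, adjusted p = 0.000713), Arnt (0.51, SE 0.13, adjusted p = 0.00419), Ahr (1.08, SE 0.36, adjusted p = 0.0192) and Egln2 (1.08, SE 0.13, adjusted p = 8.35e-06). It was larger in set 6 than in set 3 for Hif1a (1.10, SE 0.25, adjusted p = 0.00198), Arnt (0.63, SE 0.13, adjusted p = 0.000989) and Egln2 (0.82, SE 0.13, adjusted p = 0.000107). All 7 values are log2 differences of 2 differences, and sets 5 and 6 were each set against the same libraries of set 3. The median of all genes moved the same way, by 0.42 for set 5 and 0.45 for set 6. Of all genes, 43.2% were called higher by the same test for set 5 and 46.2% for set 6. With median-centred values Hif1a and Egln2 passed in set 5, against 18.7% of all genes higher, and Egln2 alone in set 6, against 12.7%. Groups of 3 libraries are too small for a search for single outlying libraries.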

How the results depend on the processing

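Epas1 beside Hif1a kept its direction in all sets under median centring, quantile normalization, 1 added on the linear scale and each left-out library, with a change of 1.81 to 2.86 in set 3, 4.22 to 4.40 in set 5 and 4.79 to 5.04 in set 6 over the left-out libraries. The number of the 7 tested genes called in set 5, KO against WT, was 5, and 3 with median centring and with quantile normalization. In set 6 it was 3, and 4 under both scalings, with Hif1a and Egln2 kept, Arnt lost, and Vhl and Egln1 gained as lower. In set 3 it was 0, and 0 to 1 over the left-out libraries. For KO cells of set 6 against set 5 it was 1, 0 with a minimum fold of 1.2, and 0 to 1 over the left-out libraries. The KO effect of set 5 minus set 3 was called for 4 genes, and for 2 with median centring, quantile normalization or a minimum fold of 1.2. It also lost Ahr without KO replicate 1 of set 5 (adjusted p = 0.0512), WT replicate 2 of set 3 (0.0556) or WT replicate 1 of set 5 (0.0563). That of set 6 minus set 3 was called for 3 genes, for 1 with median centring and for 0 with quantile normalization. Small differences changed sign with median centring and quantile normalization: Arnt in set 3 (0.0072 and 0.021), Vhl in set 5 (-0.14 and -0.14), Egln1 in set 5 (-0.36 and -0.35) and Vhl in set 6 (-0.32 and -0.32), and Egln1 in set 3 with quantile normalization (0.020). Over the left-out libraries the ranges that crossed 0 were Arnt -0.0641 to 0.0521, Ahr -0.0298 to 0.31 and Egln1 -0.15 to 0.0943 in set 3, Egln1 -0.0821 to 0.21 in set 5 and -0.19 to 0.14 in set 6, and Hif1a -0.26 to 0.0608 in WT cells of set 5 against set 3. With the replicate number as a block over all groups the counts of members called were 0, 5 and 3 in sets 3, 5 and 6 for KO against WT, as without it. With the block within each genotype, sets 6 and 5 differed in 1 member in KO and 1 in WT cells, as without the block. Depth is unknown, within-group spread was narrowed before deposit, and 3 libraries a group limit all tests.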

Other observations

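Arnt2, a relative of Arnt that is mainly known from the nervous system, was the partner gene called higher in KO cells of set 3, and its further values were looked at after this was seen. Its log2 values in KO cells were 7.78, 5.43 and 6.44 in set 3, 7.95, 8.26 and 8.001 in set 5, and 9.19, 9.48 and 9.53 in set 6. In WT cells they were 4.02, 3.76 and 2.89 in set 3, 3.88, 5.004 and 5.60 in set 5, and 6.69, 7.50 and 7.91 in set 6. Every KO library lay above every WT library of its set. The limma difference was 2.99 (SE 0.51, adjusted p = 0.00138) in set 3, 3.24 (SE 0.51, adjusted p = 4.84e-05) in set 5 and 2.03 (SE 0.51, adjusted p = 0.00282) in set 6, and with median-centred values 3.02 (adjusted p = 0.00133), 2.85 (adjusted p = 0.000276) and 1.62 (adjusted p = 0.0204).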
